A study of Mus musculus with 15 samples.

Results

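The genes described here encode the synaptic vesicle and the machinery that releases transmitter from it, a set of 36 protein-coding genes taken by name out of the 27179 gene identifiers in a table of RNA counts. The identifiers were matched to mouse symbols, and all 36 genes passed the filter on low counts, as did 16816 genes in all. The measurements are bulk RNA sequencing of the medial prefrontal cortex (mPFC), a cortical region that regulates the extinction of conditioned fear, dissected by atlas coordinates from C57BL/6J mice. The 15 libraries fall into 4 groups. Mice labelled as not ABX treated were sampled before fear extinction (n = 3, replicates 1, 3 and 4) or after it (n = 4), and mice labelled as ABX treated were sampled before (n = 4) or after it (n = 4). ABX commonly stands for an antibiotic mixture given to deplete gut bacteria, and the labels do not spell it out. They also leave out the agents and doses, the age and sex of the mice, and whether a library holds 1 animal. The p-values therefore measure the spread between these libraries, which may in part be technical.

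In an axon terminal, transmitter is pumped into vesicles, the filled vesicles are tethered and made ready at the active zone, and calcium entry makes them fuse with the plasma membrane. Fusion is driven by SNARE proteins, held in check and assisted by complexins, and triggered by synaptotagmins, which bind calcium. Priming proteins of the Unc13 and RIM families make docked vesicles ready for fusion, Bassoon and Piccolo organise the active zone, and dynamin, amphiphysin and synaptojanin retrieve the membrane afterwards. In the cortex many of these genes are expressed by nearly all neurons. Some family members differ between excitatory cells, inhibitory cells and incoming axons, whose own mRNA lies largely in distant cell bodies.

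Total counts ran from 44254906 to 57929503 per library, and 19621 to 19939 identifiers had counts. Levels are given as CPM, which are counts scaled to a common library size with TMM factors, and differences as log2 fold changes from an edgeR quasi-likelihood fit to all 15 libraries. A gene was called at an adjusted p under 0.05 over all genes tested, by edgeR on the counts as deposited unless another tool or setting is named. Every marker list of neurons and glia that was checked was detected, with summed levels of 5380.7 to 7362 CPM for 10 excitatory neuron genes and 488 to 549 CPM for 8 genes of fast-spiking interneurons. The libraries differed in how counts followed the GC content of transcripts. Per 10 points of GC, log2 CPM moved by between -0.41 (pre-extinction ABX replicate 1) and 0.32 (pre-extinction non-ABX replicate 3), and many differences are given again with this trend removed.

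The set spanned a 292-fold range of levels per kilobase of exon, a scale on which genes can be compared only roughly. The length takes in the exons of all annotated transcripts of a gene, so it can exceed that of the transcripts present. It was 22746 bases for Unc13b, which had a mean of 118 CPM, and 10167 for Vamp1. The order and the range therefore depend in part on the annotation. Snap25, a SNARE protein of the plasma membrane, was the highest at a mean of 482 CPM per kilobase over the 15 libraries. It was followed by the vesicle SNARE Vamp2 (336), the complexin Cplx1 (329), the fast calcium sensor Syt1 (305), Slc17a7 (289), which loads vesicles with glutamate in most cortical excitatory neurons, and synaptophysin, Syp (282). The lowest were Sv2c (1.65), the vesicular glutamate transporter Slc17a6 (2.58), Syt2 (3.90), Unc13c (4.21) and Unc13b (5.19). Some families held a member far above another: Unc13a was at 46.7 CPM per kilobase, Vamp2 stood above Vamp1 (17.8), Sv2a (115) and Sv2b (111) above Sv2c, and Rab3a (213) above Rab3b (15.4). In others the levels lay closer, as for Cplx1 and Cplx2 (281). Of the 35 neighbouring pairs in this order, 32 had overlapping ranges over the libraries, so neighbours were mostly not separated. The exceptions were the gaps below Snap25, Syn2 and Rims1. In raw depth 27 members were above 100 CPM in every library, and the coefficient of variation within groups ran from 4.68% (Rims1) to 21.8% (Rims3), with a median of 8.13%.

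**Figure D1:**
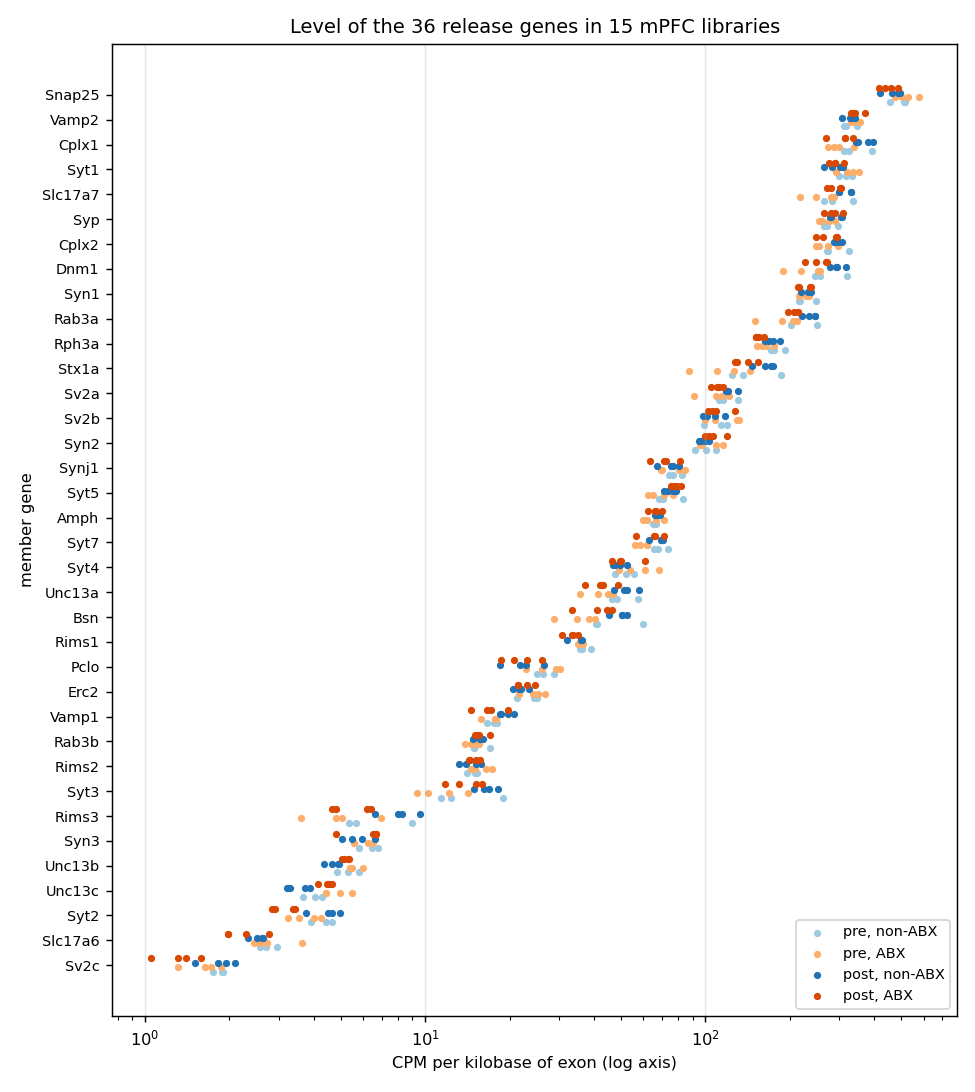
Level of each of the 36 genes in each library, in CPM per kilobase of exon on a log axis, coloured by group; genes are ordered by their mean. The order runs from Snap25 at 482 to Sv2c at 1.65, and the 4 groups overlap for most genes at this scale.

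The comparison of ABX with non-ABX mice asks how the treatment label goes with expression of the release machinery. Averaged over both stages, Syt2, a fast calcium sensor, fell and Unc13c, a vesicle priming protein, rose, and the other 34 members did not pass the test. The 2 calls make up 5.56% of the members, against 0.624% of all genes tested (105 of 16816; 0.464% were lower and 0.161% higher). Negative log2 fold changes were found in 24 of 36 members, with a median of -0.05, against 47.5% and 0.01 over all genes. At an unadjusted p under 0.05 there were 16 members, 14 of them lower, which is 44.4% against 30.6% of all genes. The number of members called was 9 with DESeq2 (25%, against 13.3% of the 14859 genes with an adjusted p), 12 without pre-extinction ABX replicate 4 (against 18.2% of all genes), 5 without pre-extinction non-ABX replicate 4 (against 6.2%), and 0 or 1 without any other library. The 9 by DESeq2 were Unc13c, higher, and Syt2, Sv2c, Rims3, Bsn, Unc13a, Cplx1, Rph3a and Dnm1, lower. With the GC trend of each library removed, edgeR called Unc13c higher and Syt2, Sv2c and Rims3 lower (11.1%, against 4.2% of 15332 genes). The differences of Bsn, Unc13a, Cplx1, Rph3a and Dnm1 were then smaller, as given below, and the part of this trend in the calls was not tested. In bulk tissue a lower level can also mean fewer cells of a type or less RNA per cell, and these cannot be told apart.

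Within each stage no member passed. Before extinction 23 of 36 were negative (63.9%, against 48.5% of all genes, with a median of -0.06 against 0.01) and 0 were called, against 0.00595% of all genes. At an unadjusted p under 0.05 there were 7 members (19.4%, against 16% of all genes), and DESeq2 called 0. After extinction 24 were negative (66.7%, against 48.4%, with a median of -0.06 against 0.01) and 0 were called, against 0.0178% of all genes. Here 10 members had an unadjusted p under 0.05 (27.8%, against 13.3%), and DESeq2 called 2 (5.56%, against 1.17%), Syt2 lower and Unc13c higher. The libraries of both arms did not overlap for 3 members before extinction (8.33%, against 6.76% of all genes) and for 9 after it (25%, against 11.1%). Of these 9, 7 were lower with ABX (6.36% of all genes were), namely Syt2, Sv2a, Rims3, Rab3a, Rph3a, Cplx1 and Dnm1. No difference of the ABX effect between stages passed the test. The interaction called 0 members and 0% of all genes, with 0 members at an unadjusted p under 0.05 (2.06% of all genes) and 0 called by DESeq2.

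**Figure D2:**
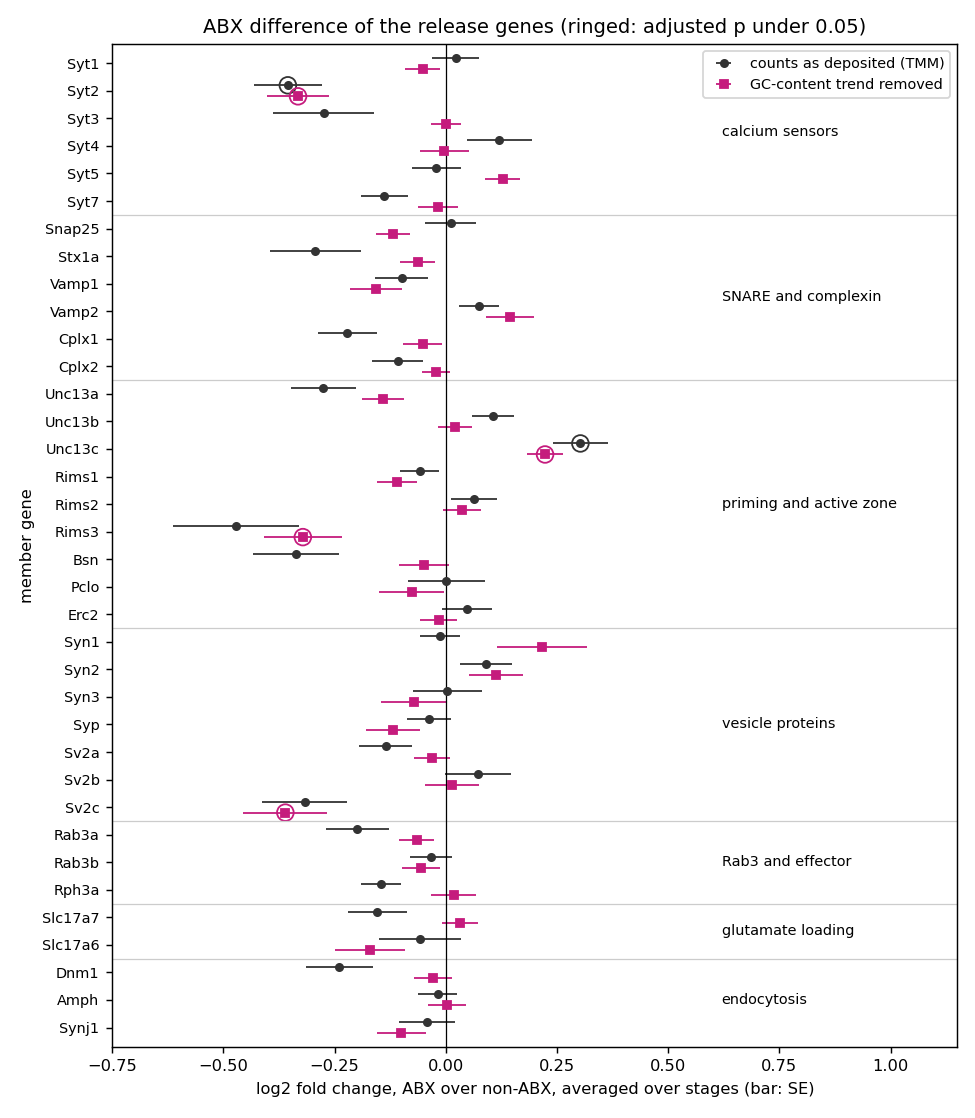
Log2 fold change of ABX over non-ABX averaged over both stages for each member, grouped by role, with bars of 1 SE, from counts as deposited (black) and with the GC-content trend of each library removed (magenta). Ringed points passed an adjusted p under 0.05: Syt2 and Unc13c in both fits, and Rims3 and Sv2c with the trend removed.

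The comparison of post-extinction with pre-extinction libraries asks how expression differed with the stage of behaviour. No member passed the test for stage in either arm or averaged over arms. Averaged over arms 16 of 36 members were negative (44.4%, against 49.8% of all genes), with a median of 0.01 against 0.00 over all genes, and 0 were called, against 0.963% of all genes (162). At an unadjusted p under 0.05 there were 8 members, 7 of them lower (22.2%, against 20.4%), and DESeq2 called 0. Without ABX the count was 1 member (2.78%, against 4.94%) and with ABX 7 (19.4%, against 16.6%), with 0 called in either arm, against 0% and 0.0951% of all genes, and 0 by DESeq2. The stages did not overlap for 1 member without ABX, Vamp1, higher after extinction (2.78%, against 5.91% of all genes), and for 2 with ABX, Unc13b and Rims1, lower after it (5.56%, against 5.47%). The members of smallest p in the averaged comparison were Pclo, Unc13b and Syt1, all lower after extinction.

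Among the 6 synaptotagmins, Syt2 had the clearest ABX difference. Syt2 (chromosome 1, 134646534 to 134753149, build mm10) is the fast sensor of many hindbrain and inhibitory terminals, in the cortex chiefly those of parvalbumin interneurons. It was at 29.9, 35.5 and 33.8 CPM in the pre-extinction non-ABX libraries, 24.6, 27.1, 32.4 and 30.6 in the pre-extinction ABX, 28.7, 37.9, 34.5 and 35.5 in the post-extinction non-ABX and 25.8, 21.8, 26.2 and 22.3 in the post-extinction ABX libraries. After extinction all 4 ABX libraries lay below all 4 non-ABX libraries, while before extinction the arms overlapped. Averaged over stages its log2 fold change was -0.36 (edgeR, SE 0.08, adjusted p = 0.0466), a 1.28-fold lower level, and 6 of 8 ABX libraries lay below the lowest non-ABX library. Within stages it was -0.20 before (adjusted p = 0.343) and -0.51 after extinction (adjusted p = 0.125, and 0.0274 with the GC trend removed), and the difference between these, -0.30 (SE 0.15), did not pass (adjusted p = 1.00). The averaged call was lost with RLE scaling (adjusted p = 0.0502) and in 13 of the 15 fits that left out a library (adjusted p from 0.0503 to 0.163), and held without replicate 4 of the pre-extinction ABX or of the pre-extinction non-ABX group. Its log2 fold change stayed between -0.39 and -0.32 in these fits.

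Marker genes of fast-spiking interneurons, in which Syt2 is known, had a median near 0. Of 8 such genes 3 were negative with ABX and 0 were called by edgeR (1 had an unadjusted p under 0.05), with a median of 0.03. Their summed level ran from 519 to 549 CPM before extinction without ABX, from 510.2 to 539 with ABX, and after extinction from 519 to 538 and from 488 to 517. These sums overlapped between the arms before extinction and not after it, the stage at which the Syt2 libraries did not overlap either. The gap after extinction was narrow, from 516.92 CPM with ABX to 518.8 without, and the mean sums were 497.45 and 527.69 CPM. Summed pan-neuronal genes did not overlap there either. The part of fast-spiking cells in the Syt2 result was not tested. Pvalb, the calcium buffer that names these cells, had 0.02 (adjusted p = 0.896), and the potassium channel gene Kcnc1 had -0.17 (adjusted p = 0.0634).

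The other synaptotagmins did not pass in any comparison by edgeR or DESeq2 on the counts as deposited. Syt1, the main fast sensor of forebrain neurons, was at 2649.5, 2502 and 2781 CPM in the pre-extinction non-ABX libraries, 2661, 2797, 2939.7 and 2444 in the pre-extinction ABX, 2210.2, 2358, 2509 and 2591 in the post-extinction non-ABX and 2411, 2596, 2413 and 2305 in the post-extinction ABX libraries. Its post-extinction libraries tended to the low end, 5 of 8 lying below the lowest pre-extinction library (averaged log2 fold change -0.14, adjusted p = 0.164, and -0.08 with the GC trend removed). Syt7, a high-affinity sensor for slower release and for facilitation, was at 505, 548 and 488 CPM in the pre-extinction non-ABX libraries, 419, 464, 438 and 463 in the pre-extinction ABX, 470.3, 529, 517 and 518 in the post-extinction non-ABX and 423, 493, 531 and 490.0 in the post-extinction ABX libraries. Before extinction its ABX libraries all lay below the non-ABX libraries (-0.21, adjusted p = 0.311), and with the GC trend removed the difference was -0.05. Syt5 was at 168, 199 and 162 CPM in the pre-extinction non-ABX libraries, 148, 182, 155 and 169 in the pre-extinction ABX, 186, 182, 175 and 169 in the post-extinction non-ABX and 188, 183, 195 and 179 in the post-extinction ABX libraries. It was among the 3 members of smallest p for the interaction, at 0.17 (adjusted p = 1.00), with overlapping groups throughout. Its averaged ABX difference was -0.02, and 0.13 with the GC trend removed. Syt3 (29.1 to 59.2 CPM over all libraries) and Syt4 (181 to 266) had averaged ABX differences of -0.27 and 0.12, which became 0.00 and -0.00 without the GC trend.

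Of the 9 priming and active zone genes, 1 rose with ABX and 0 fell by edgeR (11.1%, against 0.624% of all genes called). By DESeq2 1 rose and 3 fell, where 13.3% of all genes were called in either direction. Unc13c (chromosome 9, 73479422 to 74008155) encodes the Unc13 priming protein best known from cerebellar granule cells. It was at 35.5, 32.3 and 37.6 CPM in the pre-extinction non-ABX libraries, 48.0, 38.8, 43.6 and 39.0 in the pre-extinction ABX, 29.0, 28.2, 34.1 and 32.7 in the post-extinction non-ABX and 39.9, 40.8, 36.6 and 39.3 in the post-extinction ABX libraries. The ABX libraries lay above all non-ABX libraries of the same stage at both stages, and 7 of 8 lay above the highest non-ABX library of either stage. Averaged over stages its log2 fold change was 0.30 (edgeR, SE 0.06, adjusted p = 0.0404), a 1.23-fold higher level, with 0.27 before and 0.34 after extinction. With the GC trend removed it kept its call at 0.22 (adjusted p = 0.0125). The call was lost in 11 of the 15 fits that left out a library (adjusted p from 0.0627 to 0.132), with log2 fold changes from 0.27 to 0.33 over all 15. The call held when the library left out was replicate 4 of either arm before extinction, or, after it, non-ABX replicate 4 or ABX replicate 3.

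Its paralog Unc13a, the main priming protein of cortical excitatory synapses, was at 610.0, 723 and 584 CPM in the pre-extinction non-ABX libraries, 451, 567, 523 and 588 in the pre-extinction ABX, 598, 731, 662 and 644 in the post-extinction non-ABX and 470.1, 542, 616 and 530.1 in the post-extinction ABX libraries. Here 6 of 8 ABX libraries lay below the lowest non-ABX library, although the arms overlapped within each stage. The averaged log2 fold change was -0.28 (adjusted p = 0.0634 by edgeR, SE 0.07, and 0.0169 by DESeq2), and -0.14 with the GC trend removed. Unc13b, which primes a subset of forebrain synapses, was at 132, 110.2 and 121 CPM in the pre-extinction non-ABX libraries, 137, 123, 124 and 122 in the pre-extinction ABX, 99.1, 106, 112 and 111 in the post-extinction non-ABX and 115, 122, 121 and 117 in the post-extinction ABX libraries. With stage it had -0.14 (adjusted p = 0.148), and with ABX 0.11 (adjusted p = 0.147). With the GC trend removed these were -0.05 and 0.02. Unc13a shares exon bases with Colgalt1 on the other strand, and the library kit does not keep strand.

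**Figure D3:**
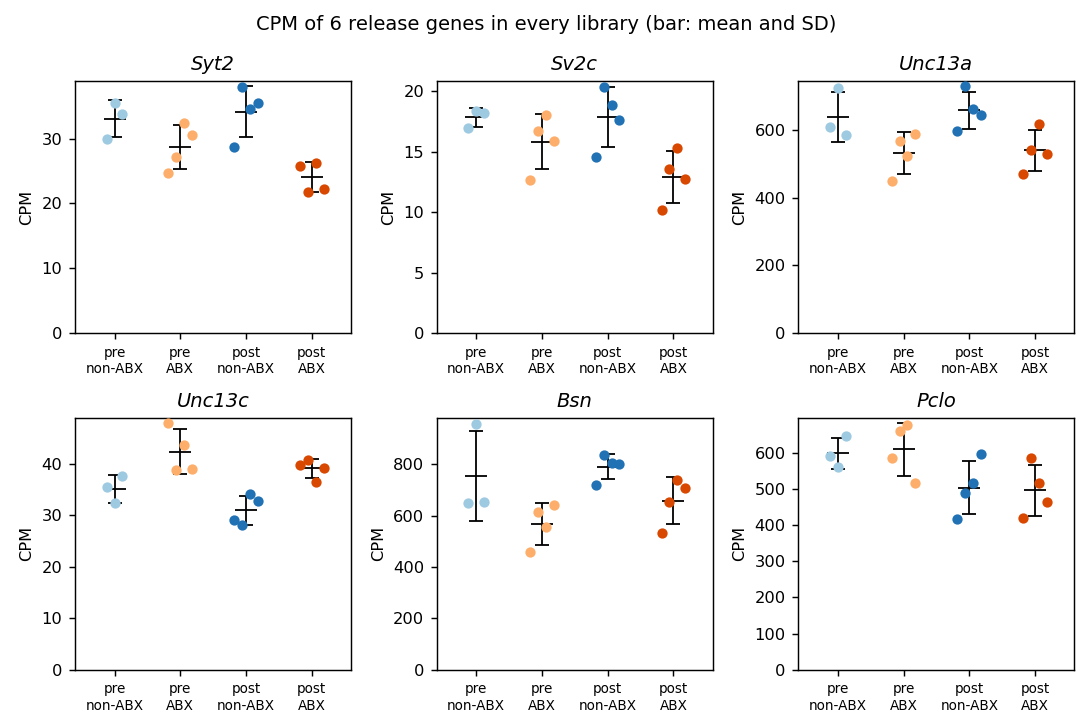
CPM of 6 members in every library by group, with the group mean and SD; each axis starts at 0. After extinction the ABX libraries of Syt2 lie wholly below and those of Unc13c wholly above the non-ABX libraries, and in Bsn and Unc13a a high pre-extinction non-ABX library (replicate 3) widens the spread.

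Bsn encodes Bassoon, a large scaffold of the active zone. It was at 650.0, 957 and 655 CPM in the pre-extinction non-ABX libraries, 461, 614, 556 and 644 in the pre-extinction ABX, 721, 838, 806 and 800.2 in the post-extinction non-ABX and 531, 654, 741 and 707 in the post-extinction ABX libraries. Before extinction the ABX libraries all lay below the non-ABX libraries, of which replicate 3 was far the highest. The log2 fold change there was -0.41 (adjusted p = 0.311), averaged over stages it was -0.34 (edgeR adjusted p = 0.0683, DESeq2 adjusted p = 0.0218), and with the GC trend removed these were -0.06 and -0.05. Leaving out a library moved the pre-extinction value between -0.50 and -0.20, the latter without non-ABX replicate 3. Bsn has the highest GC content of the set (59.8%).

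Pclo encodes Piccolo, a relative of Bassoon with a transcript of much lower GC content (45.4%). It was at 592, 561 and 646 CPM in the pre-extinction non-ABX libraries, 585, 659, 678 and 516 in the pre-extinction ABX, 416, 489, 516 and 596 in the post-extinction non-ABX and 419, 585, 517 and 465 in the post-extinction ABX libraries. Of the 8 post-extinction libraries 5 lay below the lowest pre-extinction library, and the arms overlapped throughout. With stage it had -0.27 (SE 0.09, adjusted p = 0.123, and -0.20 with the GC trend removed), and with ABX 0.00 (-0.08 without the GC trend). Rims3, a short RIM protein, was at 45.0, 71.7 and 42.7 and 28.6, 40.2, 38.4 and 55.3 CPM without and with ABX before extinction, and at 65.7, 76.5, 63.5 and 52.7 and 37.0, 38.4, 49.6 and 50.9 after it. It had the most negative averaged ABX difference of the set, -0.47 (SE 0.14, edgeR adjusted p = 0.0706, DESeq2 adjusted p = 0.0213), which passed with edgeR once the GC trend was removed (-0.32, adjusted p = 0.0465). The arms overlapped before extinction and not after it. The RIM scaffolds Rims1 (227 to 287 CPM) and Rims2 (137 to 179) and the active zone protein Erc2 (199 to 259) had averaged ABX differences of -0.06, 0.06 and 0.05 and stage differences of -0.10, -0.06 and -0.11. With the GC trend removed the former were -0.11, 0.04 and -0.02 and the latter -0.06, -0.04 and -0.05.

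None of the 7 vesicle proteins passed by edgeR in the counts as deposited, and DESeq2 called Sv2c. Sv2c, a member of the SV2 family of vesicle glycoproteins that is prominent in the basal ganglia and sparse in cortex, was at 17.0, 18.3 and 18.2 CPM in the pre-extinction non-ABX libraries, 12.7, 16.7, 18.1 and 15.9 in the pre-extinction ABX, 14.6, 20.3, 18.9 and 17.6 in the post-extinction non-ABX and 10.2, 13.6, 15.3 and 12.7 in the post-extinction ABX libraries. After extinction the ABX libraries were mostly lower, with replicate 1 of each arm the lowest of its group, and the arms overlapped. The averaged ABX difference was -0.32 (SE 0.10, edgeR adjusted p = 0.0708, DESeq2 adjusted p = 0.026), and it passed by edgeR with the GC trend removed (-0.36, adjusted p = 0.0438). Its relatives Sv2a (423 to 608 CPM) and Sv2b (821 to 1106) had -0.14 and 0.07, and -0.03 and 0.01 with the GC trend removed. For Sv2a the post-extinction ABX libraries all lay below the non-ABX libraries. The synapsins, which cluster the reserve vesicles, had averaged ABX differences of -0.01 (Syn1), 0.09 (Syn2) and 0.00 (Syn3), and the abundant vesicle protein Syp had -0.04. With the GC trend removed Syn1 had 0.22 (edgeR unadjusted p = 0.049, adjusted p = 0.203), Syn2 0.11, Syn3 -0.07 and Syp -0.12. The values of Syn1 and Syn3 thus turned their sign. The removal raised the SE of Syn1 from 0.046 to 0.10 and that of Syp from 0.049 to 0.060, so these values became less precise. For Syn2 the SE was 0.058 and 0.060, and for Syn3 it fell from 0.079 to 0.074. With stage, Syn1, Syn2, Syn3 and Syp had 0.00, 0.00, -0.04 and 0.08, and without the GC trend -0.17, -0.04, 0.03 and 0.15. Exons of Syn1, Syn2 and Syn3 overlap those of Araf, Timp4 and Timp3 on the other strand.

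The 6 SNARE and complexin genes held no call by edgeR, and DESeq2 called Cplx1 lower with ABX. Snap25 was at 3510.3, 3098 and 3483 CPM in the pre-extinction non-ABX libraries, 3588, 3412, 3926 and 3230.0 in the pre-extinction ABX, 3154, 2855, 3313 and 3348 in the post-extinction non-ABX and 3302, 3126, 2828 and 2969 in the post-extinction ABX libraries. In the ABX arm the post-extinction libraries tended lower, with an overlap between the stages (-0.21, adjusted p = 0.225), and with the GC trend removed the difference was -0.03. Snap25 has the lowest GC content of the set (38.7%). Stx1a, the plasma membrane syntaxin, ranged from 233 to 496 CPM and had -0.29 with ABX (adjusted p = 0.0876, and -0.06 with the GC trend removed). Cplx1 (589 to 867 CPM) had -0.22 (edgeR adjusted p = 0.0704, DESeq2 adjusted p = 0.0287, and -0.05 without the GC trend), and its post-extinction arms did not overlap. Cplx2 (1219 to 1600.5) had -0.11 (-0.02 without the GC trend). The vesicle SNAREs Vamp1 (147 to 210.0) and Vamp2 (1174 to 1418) had -0.10 and 0.07 (-0.16 and 0.14 without the GC trend). For Vamp1, 5 of 8 post-extinction libraries lay above the highest pre-extinction library, with a stage difference of 0.06 (adjusted p = 0.514, and 0.11 without the GC trend).

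The Rab3 genes encode small GTPases of the vesicle surface, and Rph3a encodes rabphilin, which binds them. All 3 were negative with ABX and 0 were called by edgeR: Rab3a had -0.20, Rab3b -0.03 and Rph3a -0.15 (edgeR adjusted p = 0.0729, the lowest of them). DESeq2 called Rph3a (adjusted p = 0.0261). Rph3a ranged from 703 to 890.2 CPM, and 6 of 8 ABX libraries lay below its lowest non-ABX library, and with the GC trend removed the difference was 0.02, beside -0.07 for Rab3a and -0.06 for Rab3b. With stage Rph3a had -0.07 (edgeR adjusted p = 0.374), and -0.19 with the GC trend removed (edgeR adjusted p = 0.052). Rab3a shares exon bases with Mpv17l2. Neither vesicular glutamate transporter passed. Slc17a7 ranged from 1177 to 1809 CPM, with -0.15 for ABX and 0.13 for stage, which became 0.03 and -0.00 with the GC trend removed. Slc17a6, which in cortex marks chiefly the axons of thalamic cells, was at 13.9, 14.6 and 16.0 CPM in the pre-extinction non-ABX libraries, 13.8, 13.2, 19.6 and 14.7 in the pre-extinction ABX, 12.6, 14.1, 14.2 and 13.6 in the post-extinction non-ABX and 14.9, 12.4, 10.7 and 10.6 in the post-extinction ABX libraries. A high pre-extinction ABX library (replicate 3) stood above the rest, and with ABX the stage difference was -0.34 (adjusted p = 0.231, and -0.21 with the GC trend removed).

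The endocytic genes were all negative with ABX, none was called by edgeR, and DESeq2 called Dnm1 (adjusted p = 0.0359). Dnm1, the neuronal dynamin that pinches vesicles off the membrane, ranged from 992 to 1679 CPM. It had -0.24 with ABX (edgeR adjusted p = 0.0746) and -0.03 with the GC trend removed, and its post-extinction arms did not overlap. Amph, amphiphysin (269.9 to 321 CPM), had -0.02 (0.00 without the GC trend), and Synj1, a phosphoinositide phosphatase that uncoats vesicles (513 to 682), had -0.04 (-0.10 without the GC trend). Their stage differences were 0.13, 0.03 and -0.07, and -0.02, -0.01 and -0.02 with the GC trend removed.

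The promoter sequences of the called genes Syt2 and Unc13c, and of Sv2c, called with the GC trend removed, are shown because the results turn on these genes. They are the 250 bases before a RefSeq start (GRCm38.p6), written on the strand of the gene, with the GC box GGGCGG, in either orientation, in capitals. For Syt2 the downstream of its 2 starts is shown (chr1:134709050-134709299, plus strand), for Unc13c the start in the table lies within the gene (chr9:73969038-73969287, minus strand), and for Sv2c it is the gene's outer start (chr13:96132578-96132827, minus strand).
Syt2: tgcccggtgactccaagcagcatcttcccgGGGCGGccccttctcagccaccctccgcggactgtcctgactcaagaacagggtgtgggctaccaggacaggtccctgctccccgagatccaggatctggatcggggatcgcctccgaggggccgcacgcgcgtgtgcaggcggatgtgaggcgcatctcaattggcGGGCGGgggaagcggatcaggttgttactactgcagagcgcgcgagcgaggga
Unc13c: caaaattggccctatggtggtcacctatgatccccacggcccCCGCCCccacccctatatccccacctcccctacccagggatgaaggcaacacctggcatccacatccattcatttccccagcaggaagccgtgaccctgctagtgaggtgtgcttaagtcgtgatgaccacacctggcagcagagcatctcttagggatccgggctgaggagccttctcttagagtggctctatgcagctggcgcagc
Sv2c: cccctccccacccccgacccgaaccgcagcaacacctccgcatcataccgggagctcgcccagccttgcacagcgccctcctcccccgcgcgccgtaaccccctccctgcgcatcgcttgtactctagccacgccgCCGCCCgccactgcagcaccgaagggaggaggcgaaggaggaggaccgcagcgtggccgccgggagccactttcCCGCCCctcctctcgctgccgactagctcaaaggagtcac

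Promoters were in the table for 29 of the 36 members, 40 in all. A GC box was in 22 of these 40 (55%), against 32.7% of 32851 promoters of the same length, among members whose promoters were richer in GC (median 59.2%, against 52.4%). The TATA box TATAAA was in 3 (7.5%, against 12.4%), of Rab3b and Sv2b. The cyclic AMP response element TGACGTCA was in 1, that of Syn1 (2.5%, against 1.55%). Both strands were searched, and these letters do not overlap each other. The windows shown for Syt2, Unc13c and Sv2c held 2, 1 and 2 GC boxes and neither of the other motifs, whichever way the gene went with ABX. The window of the outer Syt2 start, not shown, held 3 GC boxes. That of Rims3, also called lower with the GC trend removed and not shown, held 3 as well.

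The fold changes of the members followed the GC content of their transcripts. It ran from 38.7% to 59.8% over the members, with a median of 51.5% against 49.9% over the genes tested. Across the 36 genes it had a Pearson correlation of -0.62 with the averaged ABX fold change and 0.78 with the averaged stage fold change. Across the 15332 genes with a GC value these were -0.60 and 0.58. Genes are not independent replicates, and the points share their libraries, so these are descriptions. Of the 19 members at 50% GC or more, a threshold chosen after seeing the data, 17 were negative with ABX (median -0.15) and 2 with stage (median 0.05). Of the 17 members under 50%, 7 were negative with ABX (median 0.00) and 14 with stage (median -0.11).

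With the GC trend of each library removed, the correlations over the members were 0.17 for ABX and -0.01 for stage. Over the 15332 genes they were -0.01 and 0.01, which the removal itself brings about, so these values are no test. The trend was fitted without regard to group. Its mean slope per 10 points of GC was 0.04 without and -0.21 with ABX before extinction, and 0.17 and 0.0063 after it. A difference between groups that followed GC content is therefore removed as well. The negative counts for ABX became 11 of 19 (median -0.02) and 13 of 17 (median -0.07), and 12 members changed sign. For stage 27 of 36 members were then negative (median -0.04, against 50.6% negative and a median of -0.0014 over all genes) and 15 changed sign. For ABX 24 of 36 were negative, with a median of -0.04, and the calls were Syt2, Sv2c and Rims3 lower and Unc13c higher, 11.1% of the members against 4.2% of the 15332 genes. After extinction alone, Syt2 (-0.50) and Unc13c (0.27) passed as well, 5.56% against 0.385%. For stage 0 members passed, against 2.23%.

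**Figure D4:**
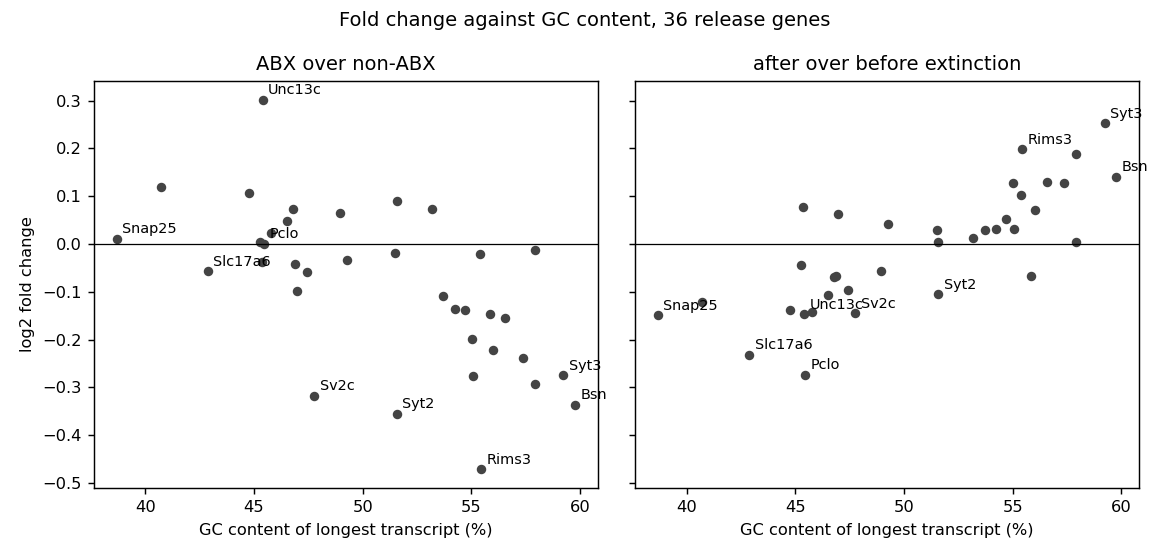
Log2 fold change of the 36 members against the GC content of the longest transcript, for ABX over non-ABX (left) and after over before extinction (right), both averaged over the other factor. Members of higher GC content lie lower for ABX and higher for stage, and Syt2, Sv2c, Rims3 and Unc13c stand off the ABX trend.

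The library values show the same split. The median deviation of the 19 members of higher GC content was lowest in pre-extinction ABX replicates 1 (-0.25) and 3 (-0.16) and highest in pre-extinction non-ABX replicate 3 (0.22) and post-extinction non-ABX replicate 2 (0.20). The 17 members of lower GC content were highest in pre-extinction ABX replicate 3 (0.20) and lowest in post-extinction non-ABX replicate 1 (-0.17). Over all 36, the median deviation was 0.04 ± 0.07 (SD, n = 3) in pre-extinction non-ABX, -0.02 ± 0.07 (n = 4) in pre-extinction ABX, 0.03 ± 0.04 (n = 4) in post-extinction non-ABX and -0.04 ± 0.03 (n = 4) in post-extinction ABX libraries. These ranges overlapped before extinction (-0.02 to 0.12 and -0.12 to 0.04) and also after it (-0.02 to 0.07 and -0.085 to -0.0015).

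**Figure D5:**
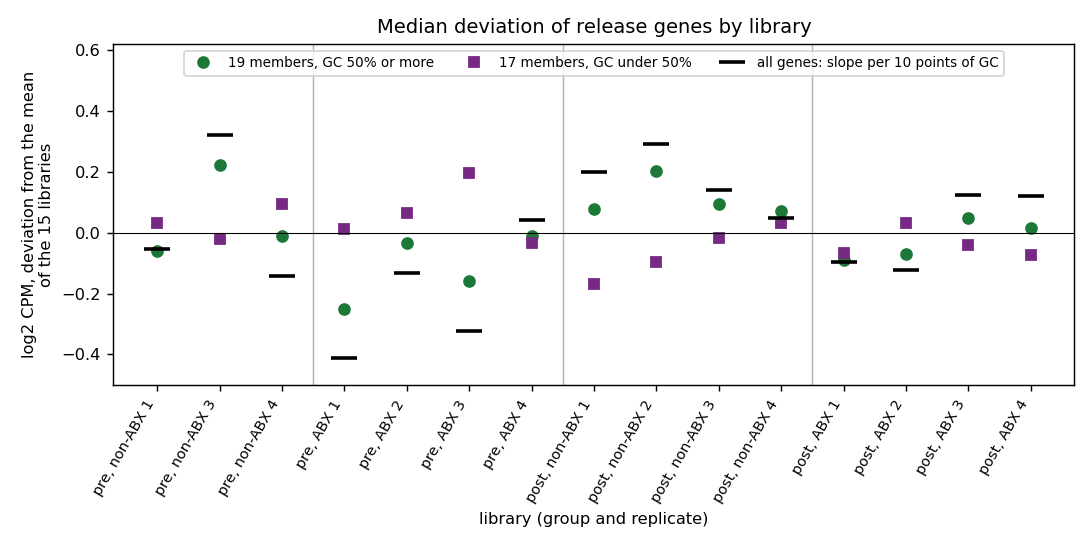
Median deviation of log2 CPM from the mean of the 15 libraries, for the 19 members at 50% GC or more (circles) and the 17 under it (squares), with the slope of all genes on GC content in each library (bars, log2 per 10 points). The circles follow the bars, from -0.25 in pre-extinction ABX replicate 1 to 0.22 in pre-extinction non-ABX replicate 3.

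Marker lists of all neurons, of excitatory neurons and of blood vessel cells had negative medians with ABX as well. Of 12 pan-neuronal genes 10 were negative (median -0.14, and -0.05 with the GC trend removed) and 0 were called. Their summed level ran from 4763 to 5397 and from 4287 to 4949 CPM before extinction without and with ABX, and from 5036 to 5376 and from 4648 to 4919 CPM after it, where the arms did not overlap. Of 10 excitatory neuron genes 7 were negative (median -0.09). Endothelial genes were all negative, 8 of 8 (median -0.40, 3 called lower), and of 7 pericyte and smooth muscle genes 6 were (median -0.54, 4 called lower), with summed levels of 170.45 to 285 and 61.5 to 101 CPM. None of the genes in these 4 lists was at 0 in every library, and their part in the results was not tested. Apart from the pan-neuronal list, their medians are given for the counts as deposited only, without removal of the GC trend. The mean sum of 7 astrocyte genes was higher with ABX. It was 1870.8 and 1971.1 CPM before extinction without and with ABX, and 1944.6 and 2044 CPM after it. The libraries of both arms overlapped at each stage, and the part of these cells was not tested either.

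A wider list of release genes was read in the same way. Of 92 further genes (other SNAREs and fusion factors, calcium sensors and primers, active zone proteins, vesicle and Rab proteins, transporters that load vesicles, and endocytic proteins) 89 were tested. With ABX 51 were negative (median -0.03), 1 rose and 0 fell by edgeR (1.12%, against 0.624% of all genes), against 2 and 14 by DESeq2 (18%, against 13.3%), and 39 had an unadjusted p under 0.05 (43.8%, against 30.6% of all genes). The gene that rose was Sh3gl3, an endophilin, which bends membrane during vesicle retrieval. It was at 24.2, 22.8 and 25.3 CPM in the pre-extinction non-ABX libraries, 28.0, 29.9, 27.9 and 26.5 in the pre-extinction ABX, 24.1, 22.4, 23.7 and 24.7 in the post-extinction non-ABX and 30.3, 29.9, 28.3 and 27.4 in the post-extinction ABX libraries. The ABX libraries lay above the non-ABX libraries at both stages, with an averaged log2 fold change of 0.25 (edgeR, SE 0.05, adjusted p = 0.0361). With the GC trend removed 54 of the 89 were negative with ABX, and 2 rose and 3 fell by edgeR (5.62%, against 4.2% of all genes). Of the 13 further active zone genes 10 were negative with ABX (median -0.15, and -0.04 with the GC trend removed), and of the 15 further SNARE and fusion genes 6 were (median 0.05).

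With stage 46 of the 89 were negative (median -0.01), 0 were called by edgeR and 4 fell with DESeq2 (4.49%, against 4.54% of all genes), and 18 had an unadjusted p under 0.05 (20.2%, against 20.4%). With the GC trend removed 64 were negative (71.9%, against 50.6%), as most members were. Then 1 rose and 1 fell by edgeR (2.25%, against 2.23%). In the counts as deposited the genes of smallest p were Cadps2, a priming factor best known for dense-core vesicles, and Stxbp5l, a tomosyn, which inhibits SNARE assembly. Cadps2 was at 121, 121 and 134 CPM in the pre-extinction non-ABX libraries, 132, 133, 156 and 129 in the pre-extinction ABX, 103, 123, 113 and 121 in the post-extinction non-ABX and 123, 109, 106 and 95.4 in the post-extinction ABX libraries. In the ABX arm its post-extinction libraries lay below all pre-extinction libraries, and averaged over arms it had -0.23 (adjusted p = 0.08). Stxbp5l was at 198, 168 and 222 CPM in the pre-extinction non-ABX libraries, 232, 206, 238 and 169.7 in the pre-extinction ABX, 139, 146, 170.0 and 197 in the post-extinction non-ABX and 163, 176, 155 and 160.3 in the post-extinction ABX libraries. It had -0.32 (adjusted p = 0.0916), and the stages overlapped in both arms.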

How the data were processed

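RNA came from dissected mPFC and went through a SMARTer Ultra Low Input kit (V4), per the labels' protocols, which also speak of sorted cells. The authors deposited raw counts per Entrez gene identifier with no normalization, and all sample columns were used. CASAVA 1.8.2, STAR 2.3.0 and build mm10 are named, per the submitters' processing notes; no counting program or annotation is named there. Symbols were matched for 25275 of 27179 identifiers (99.7% of counts), of which 4671 had 0 counts in every library. For 14 members, exons overlap those of another gene. Symbols, coordinates and promoters came from RefSeq GRCm38.p6, exon lengths and GC content from GENCODE M21.

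Counts were analysed with edgeR 4.0.16 in R 4.3.3: filterByExpr (minimum count 10, minimum total 15), TMM scaling (factors 0.969 to 1.03), 4 group means without covariates, and two-sided quasi-likelihood tests with Benjamini-Hochberg adjustment over 16816 genes. The biological coefficient of variation was 0.112, which, more than counting error, limits precision. An SE is the size of a log2 fold change over the root of its F statistic. Library deviations are of log2 CPM (prior count 2). The GC trend was removed with an offset per library, a spline with 5 degrees of freedom fitted without the groups. This was possible for 15332 genes (91.2%). Other settings were DESeq2 1.42.0, RLE scaling, no filter, a replicate block, the compared groups alone and each library left out. The pipeline was tested on simulated data.

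Values for every library are given for the 3 members of smallest p in each comparison and for called members, and for the other release genes that were called or else the 2 of smallest p in each averaged comparison; Rims3 was added after its values were seen. The members and lists were chosen with earlier results of these data known.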

Additional observations from a re-analysis of the deposited data

Results flagged for a closer look

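Of 108 groups of 4 libraries, 36 genes in 3 groups, 5 held a library that stood apart from the other 3, judged by the gap to its nearest neighbour as a share of the group's range (Dixon's test). Chance gives about 5% of groups, so this number is no more than chance would flag. Syn3 was at 58.9 CPM in post-extinction ABX replicate 1 against 80.2 to 82.2 in the rest (gap share 0.914). Sv2a was at 608 CPM in post-extinction non-ABX replicate 2 against 549 to 559 (0.839). Vamp1 was at 161 CPM in pre-extinction ABX replicate 2 against 181 to 182 (0.928). Unc13b was at 137 CPM in pre-extinction ABX replicate 1 against 122 to 124 (0.869). Rims1 was at 235 CPM in post-extinction non-ABX replicate 1 against 264 to 267 (0.898). No difference of a member's ABX effect between the stages passed the test of the interaction.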

How the results depend on the processing

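The number of members called for ABX averaged over stages was 2 as reported (5.56%, against 0.624% of all genes) and 1 with RLE scaling. It was 9 with DESeq2 (25%, against 13.3%) and 4 with the GC trend removed (11.1%, against 4.2%). With the replicate block it was 6 (16.7%), where 666 genes were called in all. With the block and the GC trend removed it was 8, where 1741 genes were called in all. The number ran from 0 to 12 over the fits that left out a library, where 4 to 3057 genes were called in all. It was 12 without pre-extinction ABX replicate 4 (against 18.2% of all genes) and 5 without pre-extinction non-ABX replicate 4 (against 6.2%). Without any other library it was 0 or 1. For ABX after extinction it was 0 as reported, 2 with DESeq2 (5.56%, against 1.17% of all genes) and 2 with the GC trend removed (5.56%, against 0.385%). With the block and the GC trend removed it was 4, where 417 genes were called in all. For stage averaged over arms it was 2 (Pclo and Rph3a, lower) with the block and the GC trend removed, where 572 genes were called in all. The members' median there was -0.048. With a library left out it was 0 to 3, where 14 to 2262 genes were called in all, and 3 without pre-extinction non-ABX replicate 3. As the calls over all genes moved this much, these counts are no result about the members. Neither Syt2 nor Unc13c turned its sign in these fits. Syt5 was called higher with ABX with the block and the GC trend removed (0.12, adjusted p = 0.0492), against -0.02 as reported, and the cause of these moves was not tested. Syt2 had an adjusted p of 0.0502 with RLE scaling. Over all genes the calls, in the order ABX before and after extinction, stage without and with ABX, interaction, ABX averaged and stage averaged, were 1, 3, 0, 16, 0, 105 and 162, and with DESeq2 15, 182, 19, 282, 4, 1977 and 704. With the block and the GC trend removed they were 5, 417, 31, 189, 0, 1741 and 572. With the GC trend alone removed, 59, 2, 77, 644 and 342 were called for ABX after extinction, stage without ABX, stage with ABX and the averaged comparisons. The block alone gave 666 and 96 for the averaged comparisons. Without a filter 2 were called before extinction and 2 for stage without ABX, and the compared groups alone gave 32 for ABX after extinction and 5 for stage with ABX. Leaving out a library gave 1 to 28, 0 to 6, 0 to 1, 3 to 237, 0, 4 to 3057 and 14 to 2262. Whether replicate numbers mark pairs or batches could not be told from the correlation of deviations. It exceeded 0.1 in 8 of 21 same-numbered pairs across groups (range -0.49 to 0.37), and 5 of 15 libraries correlated best with their own number. No libraries were duplicates (chi-square per degree of freedom between replicates from 6.26 to 79.2).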
